A study of Mus musculus with 12 samples.

Results

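The genes described here encode the Polycomb repressive complexes PRC1 and PRC2, the enzymes and readers of DNA methylation, and proteins of H3K9-methylated heterochromatin. They were chosen by name, as 51 genes for these 3 chromatin systems, and each was read from its brightest probe set on average over the 12 arrays. Of the 51 genes, 49 had a probe set of their own among the 19935 genes measured, and Cbx6 and Suv39h1 were not analysed here. RNA came from whole livers of male mouse fetuses of strain 129/S6 (Taconic) at 18.5 days post coitum, measured on Affymetrix gene arrays. The 6 arrays of the control group are labelled wild type. The other 6 are labelled double knockout for macroH2A1 and macroH2A2, histone variants that replace H2A in part of the nucleosomes and carry a large macro domain. Embryos of both genotypes were mixed and carried to this stage by wild-type females, so both groups share a wild-type maternal environment. The labels do not give the design of the deleted alleles, the number of recipient females or the litter of each fetus. Tests therefore measured genotype against the spread between these 12 samples.

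PRC2 methylates histone H3 at lysine 27 through the catalytic subunits EZH1 and EZH2, and PRC1 ubiquitinates histone H2A through RING1 or RNF2. DNMT1 copies CpG methylation after replication, DNMT3A and DNMT3B place it anew, and the TET enzymes oxidise it. HP1 proteins bind H3 methylated at lysine 9 by enzymes of the SUV39H, SETDB1 and EHMT families. MacroH2A is known from silent chromatin, including the inactive X chromosome, where it lies alongside Polycomb marks and DNA methylation. Fetal liver at this stage holds hepatocytes together with dividing blood precursors, chiefly of the red cell line.

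The targeted gene Macroh2a1 measured 10.14 to 10.52 on the wild-type arrays (median 10.35, log2 value) and 9.52 to 9.67 on the arrays labelled double knockout (median 9.57). The groups did not overlap, and the difference was -0.77 (SE 0.06, limma adjusted p = 3.5e-05). Macroh2a2 measured 9.09 to 9.52 in wild type (median 9.30) and 8.71 to 9.58 in the arrays labelled double knockout (median 9.24). Its difference was -0.09 with a 95% interval from -0.33 to 0.15, so this gene did not check the label. Where its probes lie relative to the deleted part is not stated in the labels. On the log2 scale the arrays had medians from 7.55 to 7.61. The mean of 25 hepatocyte markers was 12.30 ± 0.08 in wild type and 12.19 ± 0.22 in the arrays labelled double knockout (SD, n = 6 each, exact permutation p = 0.30). The median difference of these markers was -0.041, beside 0.013 over all genes. A lower mean in the double-knockout group was found for 24 of 25, beside 8171 of 19935 genes. The SD was larger in that group for 22 of 25 (88%, beside 55.9% of all genes). No batch is given in the labels.

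None of the 49 chromatin genes passed the genotype test. The count at limma adjusted p under 0.05 was 0 of 49, beside 3 of 19935 genes (0.0150%). At an unadjusted limma p under 0.05 it was also 0 of 49, beside 783 genes (3.93%), and no chromatin gene separated the groups without overlap, as 42 genes (0.211%) did. Differences, always double knockout minus wild type on the log2 scale, ran from -0.13 for Tet3 to 0.089 for Ezh1, a largest change of 1.09-fold. There were 21 genes with a higher and 28 with a lower mean in the arrays labelled double knockout. The share with a higher mean was 42.9%, beside 59.0% of all genes. The median difference of the 49 genes was -0.0085, beside 0.013 over all genes.

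The intervals give a range for the change in array signal of each gene taken singly, without adjustment over the 49 genes. How array signal scales with RNA amount was not tested. The 95% interval lay within 1.10-fold in both directions for 13 of the 49 genes, within 1.15-fold for 41, within 1.20-fold for 47 and within 1.25-fold for all 49. The widest bound was 1.22-fold, for Hells, and the median bound was 1.11-fold. The median SD over the 49 genes was 0.097 in wild type and 0.086 in the arrays labelled double knockout. The SD was larger in the double-knockout group for 23 of 49 genes (46.9%), beside 55.9% of all genes.

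**Figure D1:**
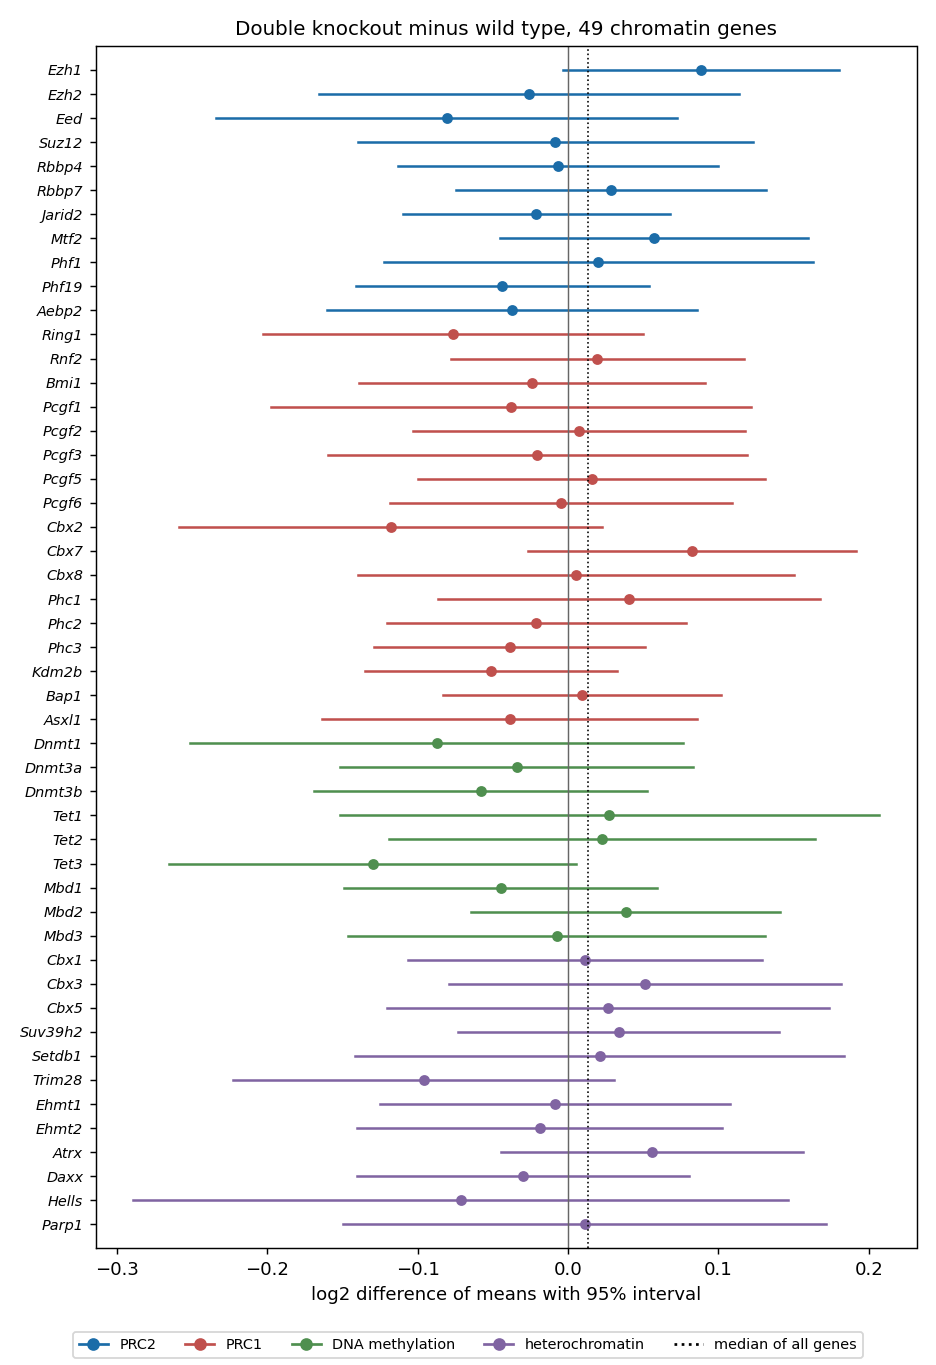
Difference in mean log2 value between the 6 arrays labelled double knockout and the 6 wild-type arrays for each of the 49 chromatin genes (horizontal axis), with the 95% interval of the limma fit as a bar and colours for the 4 gene classes; the dotted line is the median of all genes, 0.013. Every interval includes 0, and the outermost points are Tet3 at -0.13 and Ezh1 at 0.089.

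Among the 6 core PRC2 genes, 2 had a higher and 4 a lower mean in the arrays labelled double knockout, with a median difference of -0.0077. Ezh1, the less active catalytic subunit that predominates in non-dividing cells, had the smallest p of the core. It measured 9.36 to 9.52 in wild type (median 9.43) and 9.44 to 9.64 in the arrays labelled double knockout (median 9.54). In 4 of the 6 double-knockout arrays Ezh1 lay above every wild-type array, but the groups overlapped, and the difference of 0.089 had an interval from -0.003 to 0.18 (limma adjusted p = 0.99). Ezh2, the catalytic subunit of dividing cells, differed by -0.026 (SE 0.065). Eed, which reads the methylated lysine and stimulates the enzyme, differed by -0.081 (SE 0.072), and Suz12, the scaffold subunit, by -0.0085 (SE 0.061). The histone-binding subunits Rbbp4 and Rbbp7, shared with other chromatin complexes, differed by -0.0068 and 0.028.

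The differences of the 5 accessory PRC2 genes ran from -0.044 to 0.057. Mtf2, a Polycomb-like protein that brings PRC2 to CpG islands, had the smallest p of them. Its values ran from 9.06 to 9.31 in wild type (median 9.24) and from 9.19 to 9.34 in the arrays labelled double knockout (median 9.28). The groups overlapped over most of their range, and the difference was 0.057 (SE 0.048). The other Polycomb-like genes Phf1 and Phf19 differed by 0.020 and -0.044. Jarid2, which helps recruit PRC2 and reads ubiquitinated H2A, differed by -0.021, and its partner Aebp2 by -0.037.

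PRC1 is built around a RING1 or RNF2 ubiquitin ligase and 1 of several PCGF proteins. Ring1 measured 8.03 to 8.40 in wild type (median 8.28) and 8.06 to 8.25 in the arrays labelled double knockout (median 8.19). All 6 double-knockout arrays lay below the wild-type mean, yet within the wild-type range, and the difference was -0.076 (SE 0.059). Its paralog Rnf2, the main ligase in embryonic cells, differed by 0.020. The 6 PCGF genes lay between -0.038 and 0.016: Bmi1 (PCGF4) differed by -0.024, Pcgf1 by -0.038, Pcgf2 by 0.0074, Pcgf3 by -0.020, Pcgf5 by 0.016 and Pcgf6 by -0.0048.

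The CBX proteins of PRC1 read methylated lysine 27 and compact nucleosomes. Cbx2 measured 8.23 to 8.48 in wild type (median 8.30) and 8.01 to 8.38 in the arrays labelled double knockout (median 8.22). In 4 of the 6 double-knockout arrays it lay below every wild-type array, while the other 2 lay inside the wild-type range. The difference was -0.12 (SE 0.066, limma adjusted p = 0.99). Cbx7 and Cbx8, alternative readers in the same position, differed by 0.082 (SE 0.051) and 0.0055 (SE 0.068). The Polyhomeotic genes Phc1, Phc2 and Phc3, whose SAM domains polymerise PRC1, differed by 0.041, -0.021 and -0.039. Kdm2b, which carries variant PRC1 to unmethylated CpG islands, differed by -0.051 (SE 0.039).

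Bap1 and Asxl1 form the deubiquitinase that removes the PRC1 mark from H2A. Asxl1 measured 9.22 to 9.54 in wild type (median 9.46) and 9.26 to 9.50 in the arrays labelled double knockout (median 9.40). The double-knockout arrays lay wholly within the wild-type range, and the difference was -0.039 (SE 0.058). Bap1, the catalytic subunit, differed by 0.0094, and its interval lay within 1.07-fold, the smallest such bound of the 49 genes.

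All 3 DNA methyltransferase genes had a lower mean in the arrays labelled double knockout, with a median difference of -0.058, and none passed the test. Over all genes 8171 of 19935 had a lower mean. Dnmt1 measured 9.98 to 10.43 in wild type (median 10.29) and 10.04 to 10.33 in the arrays labelled double knockout (median 10.14). The double-knockout arrays lay within the wild-type range, whose lowest value came from replicate 6, and the difference was -0.087 (SE 0.077). Dnmt3a and Dnmt3b differed by -0.034 (SE 0.055) and -0.058 (SE 0.052).

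Tet3 had the lowest difference of the 49 genes. It measured 8.84 to 9.14 in wild type (median 8.99) and 8.69 to 9.02 in the arrays labelled double knockout (median 8.87). Replicates 5 and 6 of the double knockout, at 8.69 and 8.73, and replicate 1, at 8.83, lay below every wild-type array, and the groups overlapped in the rest. The difference was -0.13 with an interval from -0.27 to 0.006 (limma adjusted p = 0.99). A second Tet3 probe set differed by -0.12 (SE 0.048) and reached an unadjusted p under 0.05, which the probe set used did not. Tet1 and Tet2 differed by 0.028 (SE 0.084) and 0.023 (SE 0.066). Tet1 lies 17 measured genes from the targeted Macroh2a2 on chromosome 10, the closest any of the 49 genes came to a targeted gene, and its interval included 0. The proteins that bind methylated CpG or derive from that family showed small differences, -0.045 for Mbd1, 0.038 for Mbd2 and -0.0074 for Mbd3, a subunit of the NuRD deacetylase complex. Mbd1, with the smallest p of these, measured 9.40 to 9.70 in wild type (median 9.55) and 9.45 to 9.61 in the arrays labelled double knockout (median 9.50), which lay wholly within the wild-type range.

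The 3 HP1 genes all had a slightly higher mean in the arrays labelled double knockout: Cbx1 by 0.011, Cbx3 by 0.051 and Cbx5 by 0.027, none past the test. Over all genes 59.0% had a higher mean. Cbx3 measured 10.19 to 10.54 in wild type (median 10.43) and 10.37 to 10.60 in the arrays labelled double knockout (median 10.42), so the medians were nearly the same. Its 7 probe sets, of which 2 hold the same values and some may read near-identical copies, differed by 0.029 to 0.051. Among the H3K9 methylation genes, Trim28, the corepressor that brings SETDB1 to transposon-derived DNA through KRAB zinc-finger proteins, had the smallest p. It measured 10.11 to 10.43 in wild type (median 10.39) and 10.15 to 10.33 in the arrays labelled double knockout (median 10.24). All 6 double-knockout arrays lay below the wild-type mean, though inside the wild-type range, and the difference was -0.096 (SE 0.059). Setdb1 differed by 0.021, Suv39h2 by 0.034, and the H3K9 mono- and dimethylation enzymes Ehmt1 and Ehmt2 by -0.0088 and -0.019. The level of Suv39h2, 6.55 in wild type, is low on these arrays and may lie at background.

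Atrx and Daxx, the remodeller and chaperone that deposit histone H3.3 in heterochromatin, differed by 0.056 (SE 0.047) and -0.030 (SE 0.052). Atrx measured 9.52 to 9.67 in wild type (median 9.58) and 9.48 to 9.74 in the arrays labelled double knockout (median 9.65), and the groups overlapped over most of their range. Hells, a remodeller needed for DNA methylation of repeats, had the largest spread of the 49 genes, from 7.95 to 8.55 in wild type and 7.98 to 8.47 in the arrays labelled double knockout. Its difference was -0.071 (SE 0.10). Parp1, the poly(ADP-ribose) polymerase whose product the macro domain of macroH2A1.1 can bind, differed by 0.011 (SE 0.075).

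**Figure D2:**
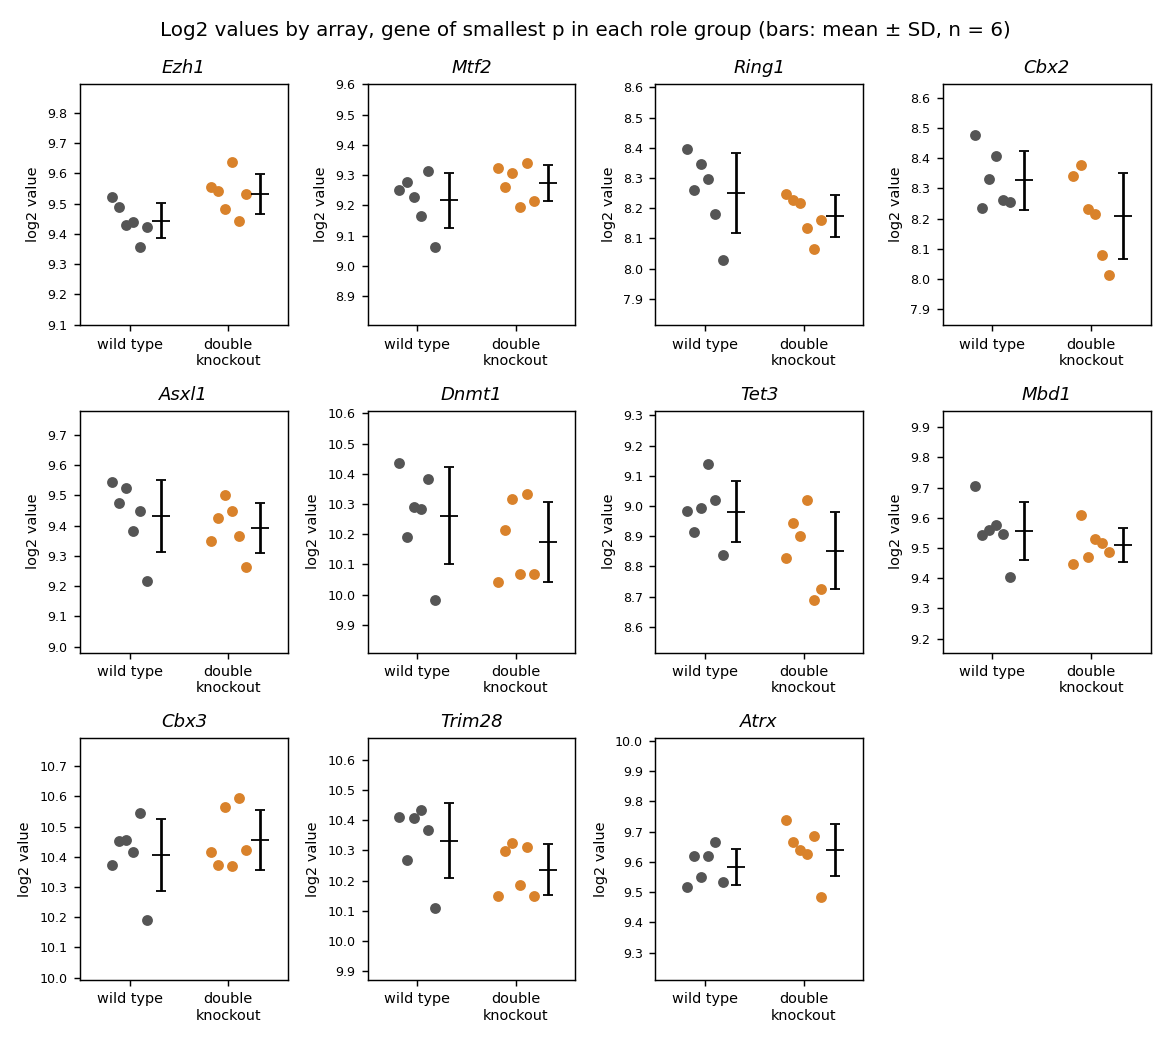
Log2 value on each array (points) for the gene of smallest p in each of the 11 role groups, wild type in grey and the arrays labelled double knockout in orange, with mean ± SD (n = 6) as bars; all panels span the same number of log2 units. The genotypes overlap in every panel, with Ezh1 at 9.36 to 9.52 and 9.44 to 9.64.

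Related genes were also compared within each array, a quantity that an array-wide shift leaves unchanged; of 12 pairs, 11 were measured. Ezh2 minus Ezh1 was lower in the arrays labelled double knockout by a difference of -0.11 (95% interval -0.32 to 0.089), with 1 of 6 arrays above the wild-type mean. Rnf2 minus Ring1 was higher by 0.096 (-0.051 to 0.24), with 5 of 6 above it. Tet3 minus Tet2 had a difference of -0.15, and its interval, from -0.30 to -0.0013, was the only one of the 11 that excluded 0; it is not adjusted for the 11 pairs. Dnmt3b minus Dnmt3a was the tightest pair, at -0.024 (-0.094 to 0.046).

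Among genes with several probe sets, the sign depended on the probe set for Phc3 and, near 0, for Tet1. Phc3 differed by -0.039 on the probe set used and by 0.059 on its other one, and neither passed the test. For Eed the values were -0.081 and -0.045, for Rbbp7 0.028 and 0.028, and for Tet1 0.028, 0.031 and -0.0028.

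Other genes of the same systems gave the same count of 0 at the adjusted threshold. At unadjusted limma p under 0.05 there were 1 of 30 Polycomb, 0 of 19 DNA methylation and 1 of 45 heterochromatin genes, beside 3.93% of all genes. Of 30 further Polycomb genes measured, 16 had a higher and 14 a lower mean in the arrays labelled double knockout and 0 passed the test. Over all genes 59.0% had a higher mean. The median difference of the 30 genes was 0.0084. The smallest p belonged to Asxl3, a paralog of Asxl1, at 0.17 (SE 0.054, limma adjusted p = 0.99), though its level near 6.2 lies low on these arrays and cannot be separated from background here. Mga and Yaf2, subunits or partners of variant PRC1, differed by 0.071 and 0.073, and Bcorl1, Auts2 and Scmh1 by -0.10, -0.11 and -0.081. Of 19 further DNA methylation genes, 11 were higher and 8 lower, with 0 past the test. Zfp57, which guards imprinted methylation, differed by 0.099, Cxxc4 by 0.076 and Uhrf2 by 0.064. The level of Cxxc4, 6.27 in wild type, is low like that of Asxl3, with the same limit. Cxxc1, Mbd4 and Zbtb33 differed by -0.063, -0.090 and -0.053. Of 45 further heterochromatin genes, 19 were higher and 26 lower, again with 0 past the test. The remodeller Smarca5 had the smallest p, at -0.16 (SE 0.057, limma adjusted p = 0.99), and Baz2a, which encodes a partner of that remodeller, differed by -0.065 and Phf2 by -0.063. Kdm4d, Asf1a and Kdm3a differed by 0.084, 0.066 and 0.098. The level of Kdm4d, 6.02 in wild type, also cannot be separated from background here.

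The 49 genes also varied between arrays of the same genotype. Wild-type replicate 6 was the lowest of the 12 arrays for 24 of the 49 genes and the highest for 0. On that array the median deviation of the 49 genes from the wild-type mean was -0.14, beside -0.022 for all genes, and 6 of the 49 lay above the mean. On double-knockout replicate 6 the median deviation was -0.070, with 9 of 49 above the wild-type mean. Double-knockout replicate 5 was the lowest array for 10 genes and replicate 6 for 8. These 3 arrays and double-knockout replicate 3 also have the smallest interquartile ranges of the deposited values, 2.77 to 2.89 beside 2.92 to 3.02 on the other arrays. Without wild-type replicate 6, 5 chromatin genes reached an unadjusted p under 0.05 (10.2%, beside 6.09% of all genes), and none passed after adjustment. These were Dnmt1 at -0.14, Eed at -0.13, Ring1 at -0.12, Tet3 at -0.16 and Trim28 at -0.14, each with limma adjusted p = 0.80.

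**Figure D3:**
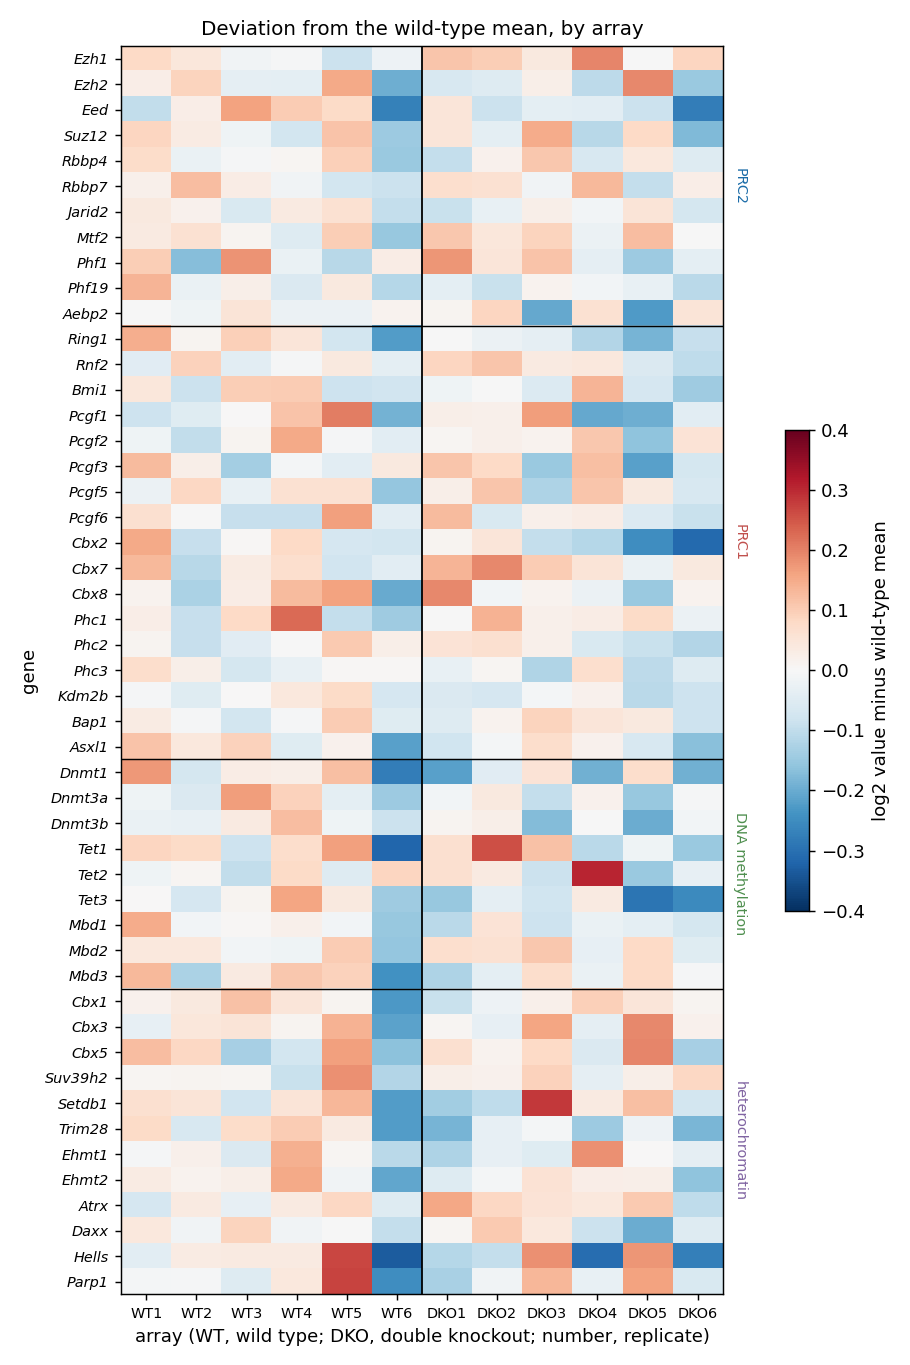
Log2 value minus the wild-type mean (colour scale, log2 units) for the 49 chromatin genes (vertical axis) on each of the 12 arrays (horizontal axis), grouped by gene class. The column of wild-type replicate 6 is mostly blue, with 6 of 49 genes above the wild-type mean.

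Markers of other cells differed between the genotypes or on wild-type replicate 6, and their part in the values above was not tested. Means of 7 marker lists were compared. The lists were chosen with earlier results of these data known, so their p-values are not independent support. The mean of 18 lymphoid markers ran from 7.43 to 7.56 in wild type and from 7.26 to 7.45 in the arrays labelled double knockout (exact permutation p = 0.0043, adjusted over the 7 lists 0.030). That of 17 neutrophil markers ran from 10.68 to 10.88 and from 10.53 to 10.72 (exact permutation p = 0.0087, adjusted 0.030). The mean of 37 proliferation markers was 10.22 in both groups (exact permutation p = 0.97), and that of 21 erythroid markers was 11.32 and 11.33 (exact permutation p = 0.89). Wild-type replicate 6 was the lowest of the 12 in both, at 9.90 and 11.05, and stood at 7.70 for 18 intestine and stomach markers, where the other arrays lay between 7.03 and 7.18. The mean of 14 exocrine pancreas markers varied most between arrays, from 7.29 to 10.22 in wild type and from 7.36 to 10.22 in the arrays labelled double knockout. Its difference was 0.65 (exact permutation p = 0.36, adjusted 0.51). Of these markers 14 of 14 were higher in the arrays labelled double knockout, beside 59.0% of all genes. The median slope of these markers on the proliferation mean described next was -3.18.

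Several chromatin genes followed the proliferation markers across livers. Each gene was fitted on genotype and the mean of the 37 markers, none of which is among the 49 genes, and the slope is the log2 change of the gene per log2 unit of that mean. The slope passed at limma adjusted p under 0.05 for 8 of 49 genes, all positive, beside 619 of 19898 genes in that direction (3.11%). In the negative direction 0 of 49 passed, beside 55 genes (0.276%). The median slope was 0.24 over the 49 genes and 0.053 over all genes, and 38 of the 49 slopes were above 0, beside 11575 of 19898 over all genes. In whole liver, fewer cells of a type and less RNA per cell cannot be told apart.

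Hells had the steepest slope, 1.13 (SE 0.18, limma adjusted p = 0.0033). It measured 7.95, 7.98 and 8.01 on the 3 livers of lowest marker mean, wild-type replicate 6 and double-knockout replicates 4 and 6, and 8.47 and 8.55 on the 2 of highest mean, double-knockout replicate 3 and wild-type replicate 5. Dnmt1 had a slope of 0.80 (SE 0.15, limma adjusted p = 0.011), with 9.98, 10.07 and 10.07 on the same 3 livers. Suz12 followed with 0.63 (SE 0.12, adjusted p = 0.012) and Ezh2 with 0.66 (SE 0.14, adjusted p = 0.017), both by limma. Cbx5, the HP1 alpha gene, had a slope of 0.70 (SE 0.14, limma adjusted p = 0.014). Mbd2 (0.46), Tet1 (0.80) and Parp1 (0.70) also passed, with limma adjusted p from 0.031 to 0.045. The 2 further Tet1 probe sets had slopes of 0.57 and 0.024.

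Paralogs of these genes are given side by side, and the difference between their slopes was not tested. Ezh1 had -0.12 where Ezh2 had 0.66, Dnmt3a and Dnmt3b had -0.059 and -0.16 where Dnmt1 had 0.80, and Tet2 and Tet3 had -0.45 and 0.080 where Tet1 had 0.80. Mbd3 had 0.48 and Mbd1 0.24 where Mbd2 had 0.46, and Cbx3 had 0.55 and Cbx1 0.25 where Cbx5 had 0.70. By class, 2 of 11 PRC2 genes and 0 of 17 genes of PRC1 or the deubiquitinase that removes its mark passed. Of the DNA methylation genes 3 of 9 passed, and of the heterochromatin genes 3 of 12. The median slopes of these classes, in that order, were 0.29, 0.14, 0.24 and 0.43. Over all genes 3.11% passed with a positive slope. Among the further genes, 1 of 30 Polycomb (near that share), 1 of 19 DNA methylation and 5 of 45 heterochromatin genes passed, all positive. They were the H3K27 demethylase gene Kdm6a (0.54), the DNMT1 cofactor gene Uhrf1 (1.05), the nuclear envelope genes Lbr (1.06) and Lmnb1 (0.99), and the histone chaperone genes Chaf1a (0.76), Chaf1b (1.10) and Asf1b (1.10).

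**Figure D4:**
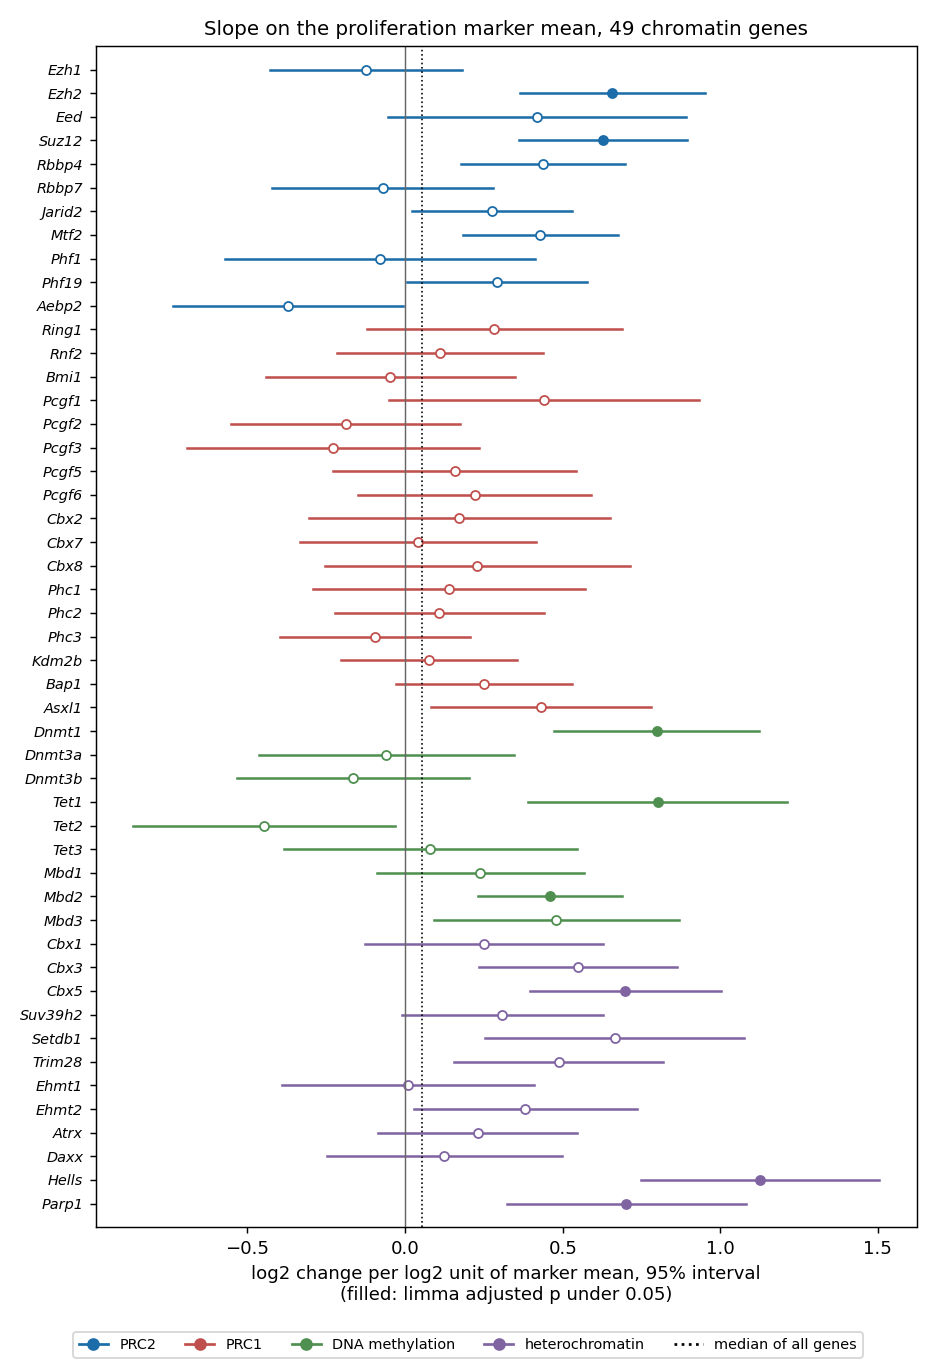
Slope of each of the 49 chromatin genes on the mean of 37 proliferation markers, genotype in the model (horizontal axis, log2 change per log2 unit), with 95% intervals; filled points passed at limma adjusted p under 0.05 and the dotted line is the median of all genes, 0.053. The 8 filled points lie between 0.46 (Mbd2) and 1.13 (Hells).

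The count rests on few livers. Without wild-type replicate 6, 1 gene passed, Hells at 1.19 (limma adjusted p = 0.049), and the share of all genes passing with a positive slope fell to 0.603%. The median slope of the 49 genes was then 0.12, beside 0.047 over all genes, and 10 of their slopes turned negative. The count also moved by over 1.5 times without wild-type replicate 2 (5 genes, beside 2.41% of all genes), wild-type replicate 5 (4, beside 2.00%), double-knockout replicate 3 (5, beside 2.01%) or double-knockout replicate 6 (5, beside 2.24%). Without wild-type replicate 6 and double-knockout replicate 6 together, the livers farthest from the median marker mean, 0 passed (beside 0.377% of all genes). The median slope of the 49 genes was then -0.062, beside 0.043 over all genes, and 14 of their slopes turned negative. The 8 slopes stayed above 0, from 0.40 (Mbd2) to 1.20 (Hells). These 8 genes were picked by their slopes on the same data, so their sign is not independent support. The marker mean moved with the erythroid mean across the 12 livers (Pearson r = 0.94, permutation p = 1e-05, the smallest these permutations can give; Spearman rho = 0.86, permutation p = 0.00072). The value of r was 0.91 without the 2 livers farthest from the median. With the erythroid mean in the model, 0 of the 49 and 0 of all genes passed with a positive slope. The median slope there was 0.0028 over the 49 genes, beside -0.011 over all genes. Of the 8 slopes 7 were above 0, from 0.34 (Parp1) to 1.49 (Cbx5), with Hells at 1.04 and SEs of 0.33 to 0.61. In that fit 3 of the 8 were at an unadjusted p under 0.05, beside 5.43% of all genes. The slope of Dnmt1 was -0.069 (SE 0.40). The relation of the marker mean with the interquartile range of the array was r = 0.29 (rho = 0.23, permutation p = 0.36 and 0.47) and -0.36 without those 2 livers. Adjusted over these 2 relations, the p-values of r were 2e-05 and 0.36.

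**Figure D5:**
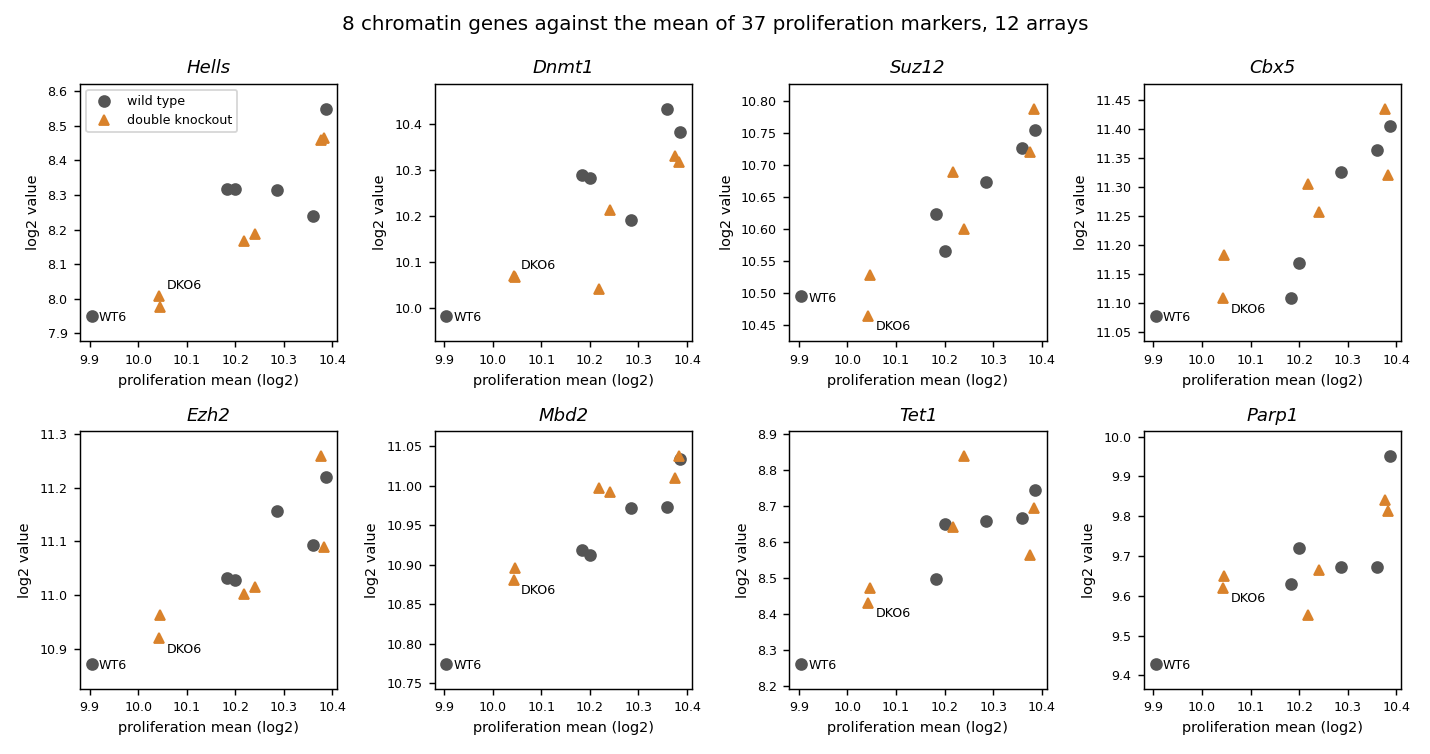
Log2 value of the 8 genes that passed (vertical axes, each panel with its own scale) against the mean log2 value of 37 proliferation markers (horizontal axes) on 12 arrays, wild type as grey circles and arrays labelled double knockout as orange triangles. Wild-type replicate 6 has the lowest marker mean, 9.90, and the lowest value of every panel except that of Suz12.

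Promoter sequence was set beside these slopes because several of the genes rose with the same markers. RefSeq windows of assembly GRCm38.p6, from 250 bases before to 50 after each listed start, were found for 45 of the 49 genes and for 15612 measured genes. The reference is strain C57BL/6J, not the strain of the fetuses. A search on both strands for the E2F letters TTTCCCGC, TTTGGCGC, TTTCGCGC and TTTGCCGC found a match in 6 of the 45 (13.3%), beside 3.48% of all genes. Of the 7 genes past the slope threshold with a window, 4 held a match (57.1%), and of the other 38 genes 2 did (5.26%). The matches of the 4 genes and of the other 2 are printed for comparison, 5′ to 3′ on the strand of the gene, with the matched letters, or their reverse complement, in capitals.
Hells, chr19:38930902-38930961, plus strand, capitals from -62 to -55: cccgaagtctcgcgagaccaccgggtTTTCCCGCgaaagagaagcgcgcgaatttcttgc
Suz12, chr11:79992861-79992920, plus strand, capitals from -219 to -212: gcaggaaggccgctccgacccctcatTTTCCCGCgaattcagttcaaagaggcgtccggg
Ezh2, chr6:47595010-47595037, minus strand, capitals from 3 to 10: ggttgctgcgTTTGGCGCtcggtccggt
Dnmt1, chr9:20952574-20952600, minus strand, capitals from 33 to 40: cggggcagcgTTTGGCGCgggctgtgc
Dnmt1, chr9:20952809-20952868, minus strand, capitals from -219 to -212: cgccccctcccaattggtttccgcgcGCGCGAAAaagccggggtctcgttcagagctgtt
Cbx3, chr6:51470422-51470481, plus strand, capitals from -168 to -161: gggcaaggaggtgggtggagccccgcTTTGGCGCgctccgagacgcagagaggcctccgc
Phf19, chr2:34914151-34914210, minus strand, capitals from -208 to -201: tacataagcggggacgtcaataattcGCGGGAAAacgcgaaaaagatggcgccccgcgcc
Positions count from the listed start, negative before it. Hells and Suz12 share the same 8 letters on the plus strand, and Ezh2, Cbx3 and the downstream Dnmt1 match share another. A match is a description of these letters, not of a bound site.

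Other letters were searched in the same windows; none of the E2F letters contains them, and a gene counts where any of its windows matched. The GC box GGGCGG was found for 39 of the 45 genes (86.7%), beside 52.9% of all genes, for 6 of the 7 genes past the slope threshold and for 33 of the other 38. Counted by window it stood in 51 of 65 (78.5%), beside 35.7% of all windows of the table. The CCAAT letters were found for 20 of the 45 genes (44.4%), beside 41.7% of all genes, and the NRF1 motif for 2 (4.44%), beside 1.61%. Taking for each gene its window with the most CpG dinucleotides, the median number was 30 for the 45 genes and 16 for all genes. Of the 45 genes, 12 (26.7%) had more than 1 listed start, beside 16.9% of all genes, and a gene with more starts has more letters searched and a higher chance of a CpG-rich window.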

How the data were processed

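Values were deposited by the authors on a log2 scale, 1 per probe set, and come from Affymetrix Expression Console per the submitters' processing notes. No source used here gives its version or summarisation method; the base of the logarithm was inferred from the range of values. Probe sets took their gene names from the platform's table: of 28815, 21780 name 1 gene, 1605 name several and 5430 are unlisted. Scanner files were not used here. Genotypes were compared in R 4.3.3 by limma 3.58.1 (lmFit, eBayes), 2-sided and adjusted over all genes by Benjamini-Hochberg. Adjusted p-values come from these fits, which were tested on simulated data with independent noise for each gene and array. That simulation does not test the fits under shifts shared by many genes on an array. The number of arrays limits precision, with a median SE of 0.055 for the 49 genes. Every chromatin gene is named, with values by array for the smallest p in each role group and, for the slope, the 5 smallest p in each direction that passed. For each further list, genes past the threshold are named, or else the 3 of smallest p in each direction. The genes and lists were chosen with earlier results of these data known. Alternatives covered normalization, probe sets, dim genes, the prior, array weights, a replicate block, covariates and left-out arrays. Promoters came from RefSeq.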

Additional observations from a re-analysis of the deposited data

Results flagged for a closer look

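Cbx1, which encodes HP1 beta, was low on wild-type replicate 6. It measured 8.63 there, while the other wild-type arrays ran from 8.88 to 8.98, so the gap to the nearest array was 0.695 of the whole range of the 6. A gap of this kind arises by chance in about 1 in 20 groups. The genotype difference of Cbx1 was 0.011 with that array and -0.035 without it, and neither passed the test.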

How the results depend on the processing

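No chromatin gene passed the genotype test in any of the 22 alternatives. The smallest limma adjusted p was 0.43, for Dnmt1 without the 4 arrays of smallest interquartile range, where Hells had the largest difference, -0.24. The median difference stayed between -0.036 and 0.0047, and 28 of the 49 genes changed sign in at least 1 alternative. The number at unadjusted p under 0.05, 0 as reported, was 2 (4.08%) after quantile normalization, 2 with array weights and 2 with the erythroid mean in the model, beside 3.97%, 6.18% and 4.85% of all genes. It was 1 (2.04%) with the mean of all probe sets and 1 with the interquartile range in the model, beside 3.97% and 5.21%. It was 5 without the 4 arrays of smallest interquartile range (10.2%, beside 8.31% of all genes) and 0 to 5 when single arrays were left out. Tet3 reached it in 7 alternatives, Ezh1 in 5, Trim28 in 4 and Dnmt1 in 3. The cause was not tested.

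The count of slopes past the threshold was 8 as reported. It was 0 with the erythroid mean in the model and 0 without the 2 arrays farthest from the median marker mean. The median slopes of the 49 genes were then 0.0028 and -0.062, beside -0.011 and 0.043 over all genes. The count was 1 to 8 when single arrays were left out. It was 12 of 49 in either direction with the interquartile range in the model, beside 4.10% of all genes with a positive slope only. Tet2 was among these 12, and its slope was negative in every alternative. Among genes above the median gene 12 of 44 passed, beside 8.50% of all genes in that fit with a positive slope. With the erythroid mean 17 of the 49 slopes changed sign, 15 of them to negative, and without the 2 farthest arrays 14 did, all to negative. Among these, the genes whose 95% interval excluded 0 in the reported fit or in the alternative were, with the erythroid mean, Rbbp4 -0.057, Dnmt1 -0.069, Mbd3 -0.74, Setdb1 -0.074, Trim28 -0.44 and Ehmt2 -0.22, and without the 2 farthest arrays Ehmt2 -0.062. The cause was not tested.

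Same-numbered arrays of the 2 genotypes deviated together in part. The correlations of their deviations over genes were 0.20, -0.18, 0.22, 0.33, 0.17 and 0.49. Of the wild-type arrays, 4 of 6 correlated best with their own number. The labels do not say what a replicate number shares, and a shared litter or batch by number was not tested. Same-numbered arrays were not treated as pairs in the reported fits. With the replicate number as a block, 0 genes passed for genotype and 1 was at unadjusted p under 0.05 (2.04%, beside 5.001% of all genes). For the slope 0 of the 49 genes passed, as did 0 of all genes with a positive slope. Of the 49 slopes 7 turned negative. The 8 slopes, picked on these same arrays, were all above 0, and 3 were at unadjusted p under 0.05, beside 8.25% of all genes. Depth does not apply to arrays, and background levels were not analysed here, so low values may lie at background.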
